A study of Emberiza melanocephala with 4 samples.

Results

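The comparison described here sets the library labelled early stimulated against the library labelled sensitive, gene by gene, in the black-headed bunting (Emberiza melanocephala), a long-distance migratory songbird that breeds in spring and summer. Genes entered it if an assembled transcript carried a reference gene name or identifier and if the exons of the gene reached a level of 25 FPKM in either library. FPKM is read coverage scaled for the length of the exons and the depth of the library. Of 2239 genes with a name or identifier, 876 met this rule, 714 of them with a gene symbol. Just inside the limit was CCDC80, at 0 FPKM in early stimulated and 25.2 FPKM in sensitive. Just outside it were UGDH, with 0 FPKM in early stimulated and 24.99 FPKM in sensitive, and PROS1, with 2.20 and 24.97 FPKM.

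The series holds 4 libraries of RNA labelled as testis from wild-caught birds, 1 for each testicular state. The early stimulated library carries a title with the prefix LD, and the sensitive library does not. No strain, age or treatment is given for either, nor whether 1 bird or a pool of birds was used. Since each state has a single library, no difference could be set against a spread between replicates, and every value below describes the 2 libraries without a p-value.

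Gonads of photoperiodic birds grow when long days act through the brain and the pituitary, and the sensitive state is the one in which this response can be started. In a growing testis, Sertoli cells, steroid-making Leydig cells and dividing germ cells are the textbook cell types. Photoreceptors, which turn light into a change of cyclic GMP through opsin, transducin and phosphodiesterase, are known from the retina, and genes of synapses and calcium buffering are known from neurons. Markers of both sets of cells were therefore followed side by side.

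The values deposited for early stimulated rest on 200.8 Mb of aligned bases, and those for sensitive on 120.5 Mb. Transcripts with a reference match held 16.4% of the listed bases in early stimulated and 15.6% in sensitive. Gene levels also sum transcripts without a match over the same exons, so the part of each library covered by the genes compared was not computed. The lowest coverage among transcripts without a match was 2.5, which is a floor of 12.5 FPKM in early stimulated and 20.8 FPKM in sensitive. The true level of a gene listed at 0 may lie under that floor. Over the 876 genes, levels in early stimulated had a Spearman correlation of 0.28 with sensitive, 0.89 with late stimulated and 0.93 with refractory, and sensitive had 0.30 with late stimulated and 0.28 with refractory. Over these genes, the order of levels in sensitive thus differed from that in each of the other 3. The genes were chosen for a high level in either early stimulated or sensitive. That choice keeps genes high in only 1 of these 2 libraries, which itself lowers the correlation between them. Since late stimulated and refractory correlated closely with early stimulated, the same choice can lower their correlations with sensitive too. Genes are also not replicates, and correlations over other genes were not computed.

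The label testis was first set against marker genes. Of 83 symbols of germ cells, 4 carried a name in the files, and 1 of these, HSPA2, a chaperone of spermatocytes, passed 25 FPKM. It stood at 34.4 FPKM in early stimulated and 28.2 FPKM in sensitive. Of 47 symbols of Sertoli and Leydig cells, 3 carried a name. TSPO, a cholesterol-binding protein of the outer mitochondrial membrane, was listed at 0 in early stimulated and had 28.3 FPKM in sensitive, while the inhibin subunits INHA and INHBA had 0 and 6.50 FPKM in early stimulated and 3.81 and 0 FPKM in sensitive. The usual markers of these cells, such as DDX4, DAZL, SYCP3, AMH, SOX9, STAR and CYP17A1, matched no assembled transcript and have no value here, which is not a measured 0. Photoreceptor markers, by contrast, summed to 1706 FPKM over 13 genes in early stimulated and to 25.8 FPKM in sensitive. All 13 were compared through their level in early stimulated, since none reached 25 FPKM in sensitive. Over the 14 photoreceptor genes named in the files, at any level, the sums were 1731 and 25.8 FPKM. These markers go against the label testis for the early stimulated library, whose tissue of origin is therefore in doubt, and every difference below is between the libraries so labelled. The part of any cell type in the differences was not tested. In such bulk samples, fewer cells of a type and less RNA per cell cannot be told apart.

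Of the 876 genes, 243 (27.7%) stood higher in early stimulated, taking as the limit a difference of 1 between log2(FPKM + 1) values, or 2-fold, and 210 (24%) were lower. Together 51.7% passed that limit, and the median difference over all genes was -0.03. The added 1 makes differences of low genes covered in both libraries look smaller than they are. For a gene listed at 0 the true level may lie anywhere up to the floor. Its difference can therefore look larger than it is. The libraries shared coverage for 733 genes, of which 138 were higher, 172 were lower and the median was -0.19. Of the 138, 73 had a sensitive value under the sensitive floor. Of the 172, 36 had an early stimulated value under the early stimulated floor. Shared coverage could be slight, as for GRIA4, with 0.39% of its exon bases covered in sensitive. A further 105 genes were listed at 0 in sensitive, with levels in early stimulated from 25.3 to 617 FPKM and a median of 44.7 FPKM. For 47 of these the level in early stimulated was under 2 times the sensitive floor, so a 2-fold difference is not measurable for them. The remaining 38 genes were listed at 0 in early stimulated and had 25.04 to 538 FPKM in sensitive, with a median of 37.4 FPKM, each at least 2 times over the early stimulated floor. Since a gene listed at 0 in one library entered only through its level in the other, such genes had to differ. A gene covered in both but under 25 FPKM in one library also entered only through the other, so the direction of its difference was fixed. For this reason, each list count below is to be read against the shares over all genes, 27.7% higher and 24% lower. Lists also share members.

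**Figure D1:**
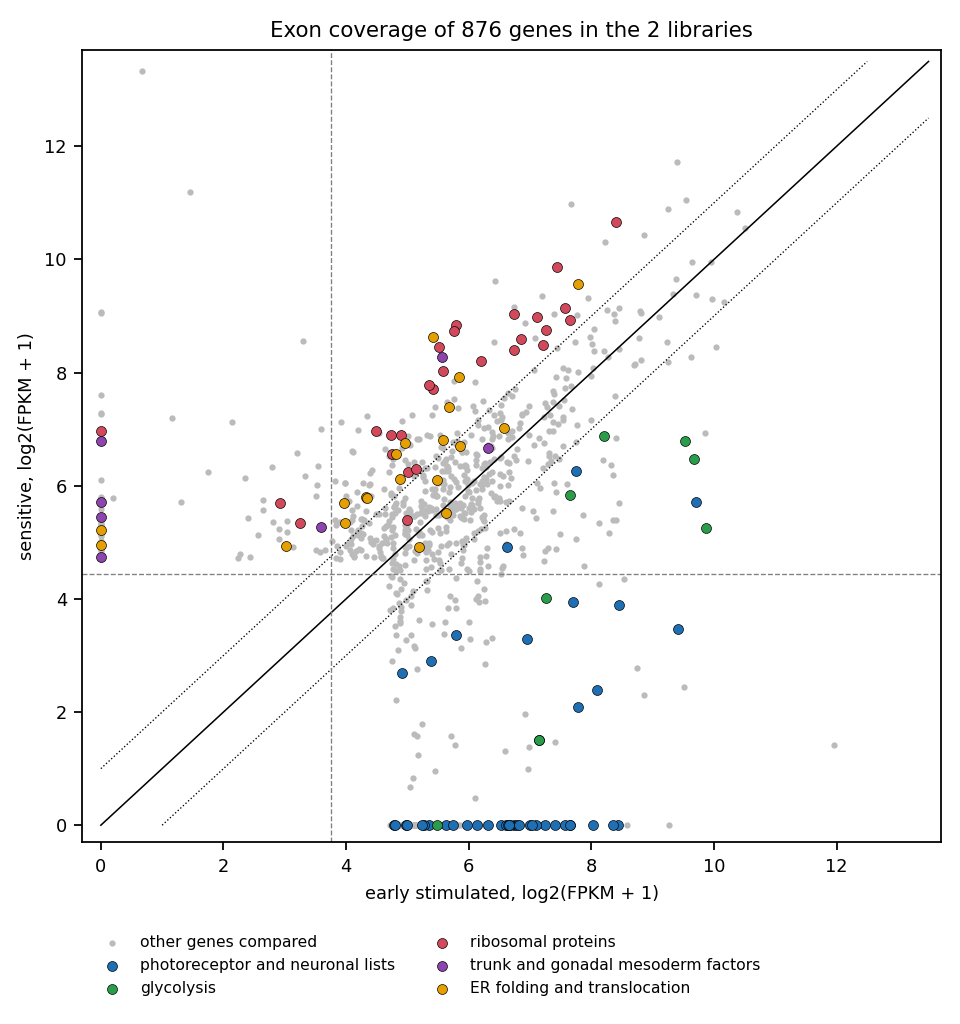
Exon coverage of each of the 876 genes in early stimulated (horizontal axis) and sensitive (vertical axis), both as log2(FPKM + 1). Points are genes, coloured by gene list. The solid line marks equal levels, dotted lines a difference of 1 and dashed lines the listing floors of 12.5 FPKM in early stimulated and 20.8 FPKM in sensitive. Photoreceptor, neuronal and glycolytic genes lie to the lower right, and ribosomal-protein genes to the upper left.

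Genes of phototransduction were among the groups on the higher side. Of 14 photoreceptor and visual cycle genes named in the files 13 were compared, and these 13 were higher in early stimulated, with a median difference of 5.94. With each level under a library's floor set to that floor, 8 were higher and the median was 1.87. The phosphodiesterase subunit PDE6H of cones (FicAlb_1.4 scaffold JH603173.1, minus strand, 15872495 to 15879359, 4 exons) had 189 FPKM in early stimulated and was listed at 0 in sensitive. Phosducin, PDC, which binds the beta and gamma subunits of transducin, had 200 FPKM against 0. Cone transducin GNAT2, which carries the signal from opsin, had 101 FPKM in early stimulated and 0 in sensitive, with 39.6% of its exon bases covered in early stimulated. GRK7, the kinase that switches off cone opsins, had 40.8 FPKM in early stimulated and 6.46 FPKM in sensitive, and RGS9BP, which anchors the regulator that ends the transducin signal, had 54.6 and 9.28 FPKM. Both were covered over all their exon bases in both libraries, so sensitive held some coverage of this pathway. PDE6G, KCNV2, RBP3 and NXNL2 lay between 26.6 and 30.8 FPKM in early stimulated and at 0 in sensitive, where a 2-fold difference is not measurable.

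The transducin genes belong to the wider family of heterotrimeric G proteins, which couple receptors to enzymes and channels. In a list of these proteins and their regulators, written after values had been seen, 9 of 12 compared genes were higher and 0 were lower, with a median of 5.35, or 1.47 with levels at the floors. GNG13, a gamma subunit of ON bipolar cells and taste cells, had 121 FPKM in early stimulated and 0 in sensitive, RGS7, which speeds up GTP hydrolysis by the alpha subunit of those bipolar cells, 78.2 FPKM against 0, and GNAO1, that alpha subunit, 53.3 FPKM against 0. GNB1, the beta subunit of rod transducin, which other cells also use, had 1049 FPKM in early stimulated and 350 FPKM in sensitive. The widely used alpha subunits GNAI1, GNAI3 and GNA11 differed by less than 1, although GNAI1 passed 1 with median-of-ratios scaling, at 1.19.

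Genes of chemical transmission were higher in the same direction. All 12 compared members of the list of transmitter synthesis, transport and receptors were higher, with a median of 6.05, or 1.69 and 10 higher with levels at the floors. GAD1 and GAD2, which make GABA, had 169 and 110 FPKM in early stimulated and 0 in sensitive. The GAD1 level rests on transcripts without its name, over 58.8% of its exon bases. SLC1A3, the glutamate transporter of glia, had 129 FPKM against 0. Receptor subunits for acetylcholine (CHRNB3, 151 FPKM in early stimulated) and glycine (GLRA2, 61.7 FPKM) were also listed at 0 in sensitive. The CHRNB3 level too rests on transcripts without its name, over 82.4% of its exon bases. ABAT, which breaks GABA down, was covered in both libraries and had 97.5 FPKM in early stimulated and 29.3 FPKM in sensitive. The dopamine receptor DRD1 had 28.9 FPKM in early stimulated and 5.42 FPKM in sensitive.

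At the terminal itself, all 5 compared genes of synaptic vesicles and secretory granules were higher, or 4 with levels at the floors. The endophilin SH3GL2, which helps to retrieve vesicle membrane, had 261 FPKM in early stimulated and 0 in sensitive, and CPLX4, a complexin of retinal ribbon synapses, 91.6 FPKM against 0. The secretogranin SCG3 had 272 FPKM in early stimulated, where 45.0% of its exon bases were covered, and 4.21 FPKM in sensitive, where 13.2% were. Carboxypeptidase E, CPE, which trims peptide hormones and is found in many secretory cells, had 215 and 76.0 FPKM in the same libraries. Under its own name CPE turned round to -6.27, since no transcript carried its name in early stimulated.

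Calcium-binding and axonal genes followed. Calretinin, CALB2, a marker of amacrine and ganglion cells in the retina, had 344 FPKM in early stimulated and 0 in sensitive. Its level in early stimulated rests on transcripts without its name, over 53.0% of its exon bases. Calbindin CALB1 had 105 FPKM against 0. PCP4, a calmodulin-binding peptide, had 839 FPKM in early stimulated and 51.3 FPKM in sensitive, but its value rests on transcripts without its name. Under its own name it stood at 44.3 FPKM in early stimulated and 51.3 FPKM in sensitive, a difference of -0.21. All 10 compared genes of neuronal differentiation and axons were higher, with a median of 6.16, or 2.95 with levels at the floors, where all 10 still passed. TAGLN3, an actin-binding protein of neurons, had 327 FPKM against 0, and ELAVL4, which stabilises neuronal mRNAs, 127 FPKM against 0. BASP1, a growth-cone protein, had 351 FPKM in early stimulated and 13.9 FPKM in sensitive, and the membrane proteolipid GPM6B had 218 and 3.24 FPKM. The photoreceptor, transmitter, vesicle, calcium and axon lists together held 44 compared genes, 44 of them higher. Of these, 30 were listed at 0 in sensitive, 7 of them under 2 times its floor. Only ABAT, CPE and PCP4 reached 25 FPKM in sensitive. The others entered through early stimulated alone and could only stand higher there, so their shared direction is no support. With levels at the floors, 8 photoreceptor, 10 transmitter, 4 vesicle, 3 calcium and 10 axon genes were higher.

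**Figure D2:**
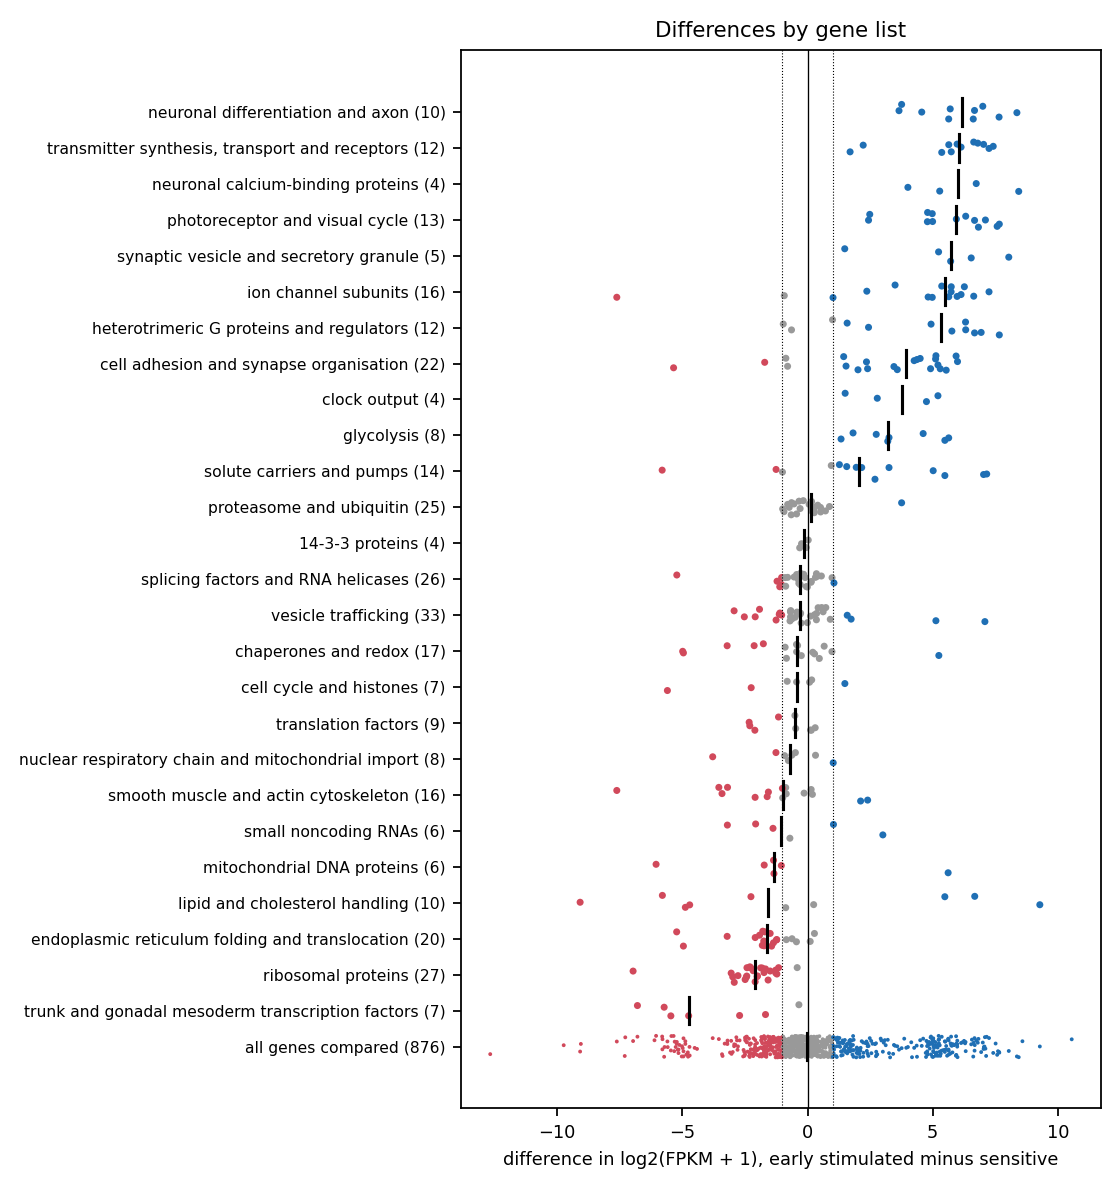
Difference in log2(FPKM + 1), early stimulated minus sensitive, for each compared member of 26 gene lists and for all 876 genes. Points are genes, blue where higher by at least 1, red where lower by at least 1 and grey between, black bars are medians and the number of genes stands in brackets. Neuronal, photoreceptor, clock and glycolytic lists lie to the right, and mesoderm factors and ribosomal proteins to the left. The 14-3-3 proteins, listed after values had been seen, lie near 0.

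The list of glycolysis and linked energy genes held enzymes that turn glucose into pyruvate (GPI, TPI1, GAPDH, ENO1 and ENO2), the lactate carriers SLC16A1 and SLC16A3, and a creatine kinase. All 8 compared members passed 1 on exon coverage, 7 of them covered in both libraries, with a median of 3.23, or 2.72 with levels at the floors. Creatine kinase B, CKB, which buffers ATP in brain and photoreceptors (scaffold JH603184.1, minus strand, 6631498 to 6642757, 8 exons), had 931 FPKM in early stimulated and 37.0 FPKM in sensitive. GPI, the isomerase of glucose phosphate, had 813 and 87.4 FPKM, and TPI1, triosephosphate isomerase, had 200 and 56.1 FPKM. The enolases parted in size of difference. ENO2, the neuronal form, had 140 FPKM in early stimulated and 1.84 FPKM in sensitive, while ENO1, the general form, had 295 and 116 FPKM. The sensitive value of ENO2 lies under the floor of 20.8 FPKM and rests on 5.4% of its exon bases, so the size of its difference is uncertain. The lactate carriers SLC16A1 and SLC16A3 had 153 and 43.7 FPKM in early stimulated and 15.2 and 0 FPKM in sensitive. GAPDH had 739 FPKM in early stimulated and 110 FPKM in sensitive, but in early stimulated only 19.5% of its exon bases were covered, by transcripts without its name, and under its name the difference was -6.79. These genes were high in the library in which the neuronal lists were high, and the part of the one in the other was not tested.

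Membrane transport also leaned upward. Of 14 compared solute carriers and pumps, 10 were higher and 2 lower, with a median of 2.05, or 1.31 and 9 higher with levels at the floors. ATP2B1, the calcium pump of the plasma membrane, had 215 FPKM in early stimulated and 32.4 FPKM in sensitive, and ATP6V1C1, part of the proton pump that fills vesicles, had 326 and 72.0 FPKM. The sodium pump subunit ATP1B3 had 339 and 114 FPKM on exon coverage and turned to -6.84 under its name. SLC4A10, a bicarbonate carrier of neurons, had 141 FPKM against 0. On the lower side, SLC25A6, which exchanges ADP and ATP across the inner mitochondrial membrane, had 216 FPKM in early stimulated and 516 FPKM in sensitive, and SLC29A1, a nucleoside carrier, was listed at 0 against 54.7 FPKM. Ion channel subunits were higher in 14 of 16 compared genes, with a median of 5.50, or 10 of 16 and 1.24 with levels at the floors. Many of them are transmitter receptors, counted above too. GJD2, the connexin of electrical synapses, had 75.6 FPKM against 0, and VDAC1, the channel of the outer mitochondrial membrane, had 231 FPKM in early stimulated and 44.0 FPKM in sensitive. KCNMB1, the potassium channel subunit of smooth muscle, was the 1 member lower, at 0 against 195 FPKM.

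Among transcription factors, clock output and mesoderm genes were followed. All 4 compared clock output genes passed 1, or 2 with levels at the floors. The clock output genes NFIL3 and NR1D2, a repressor of the bZIP family and a nuclear receptor, had 279 and 63.1 FPKM in early stimulated and 39.7 and 21.6 FPKM in sensitive. HLF and TEF, bZIP activators, had 35.9 and 25.9 FPKM against 0, under 2 times the sensitive floor. In the trunk and gonadal mesoderm list 0 of 7 compared genes were higher and 6 were lower, with a median of -4.74, or -1.70 with levels at the floors. NR2F2, a nuclear receptor of mesenchyme and of the Leydig lineage in mammals, had 46.2 FPKM in early stimulated and 308 FPKM in sensitive. SNAI2, a repressor active in mesenchymal cells, HAND2, known from heart and limb, and OSR1, known from the kidney, were listed at 0 in early stimulated and had 109, 51.8 and 42.8 FPKM in sensitive. MEIS1, a homeodomain factor that neurons and the retina express too, was the exception, with 79.0 and 101 FPKM.

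In the list of smooth muscle and the actin cytoskeleton 8 of 16 compared genes were lower and 2 higher (median -0.996, or -2.34 under the genes' own names), and 6 stayed within 1. Calponin CNN3, which binds actin, had 85.3 FPKM in early stimulated and 787 FPKM in sensitive. Moesin, MSN, which ties actin to the membrane, had 11.1 and 127 FPKM, and tropomyosin TPM4 had 5.90 and 79.2 FPKM. The thymosin TMSB4X, which holds actin monomers, had 465 and 1374 FPKM. Beta-actin, ACTB, had 296 and 1265 FPKM, with 47.7% of its exon bases covered in sensitive, and turned to 8.22 under its name. Its exons also overlap those of another named gene. TWF1, twinfilin, and RDX, radixin, were higher instead, with 150 and 68.4 FPKM in early stimulated and 27.7 and 15.0 FPKM in sensitive. The 2 named genes of extracellular matrix and fibroblasts, the protease inhibitor SERPINE2 and the extracellular superoxide dismutase SOD3, had 8.88 and 3.42 FPKM in early stimulated and 378 and 139 FPKM in sensitive.

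Lipid genes split by family member. FABP4, the fatty-acid carrier of fat and endothelium (scaffold JH603220.1, minus strand, 5106276 to 5110105, 4 exons), was listed at 0 in early stimulated and had 538 FPKM in sensitive, while FABP5, which the retina and skin also express, had 101 FPKM in early stimulated over 30.6% of its exon bases and 0 in sensitive. ELOVL4, which makes the very long fatty acids of photoreceptors, had 43.6 FPKM against 0, and ELOVL5, which lengthens shorter polyunsaturated fatty acids, had 13.1 FPKM in early stimulated and 66.6 FPKM in sensitive. ACBD7, a binding protein for acyl-CoA, had 617 FPKM against 0, the highest level among genes with a symbol that were listed at 0 in sensitive. NPC2, which hands cholesterol out of lysosomes, was at 0 against 54.4 FPKM. The plasma proteins AHSG and COLEC10, known from the liver, were at 0 against 527 and 54.2 FPKM. Of 10 lipid genes compared, 3 were higher and 5 lower, with a median of -1.56, or -0.91 with levels at the floors and -5.18 under the genes' own names. The share higher was near the 27.7% over all genes.

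**Figure D3:**
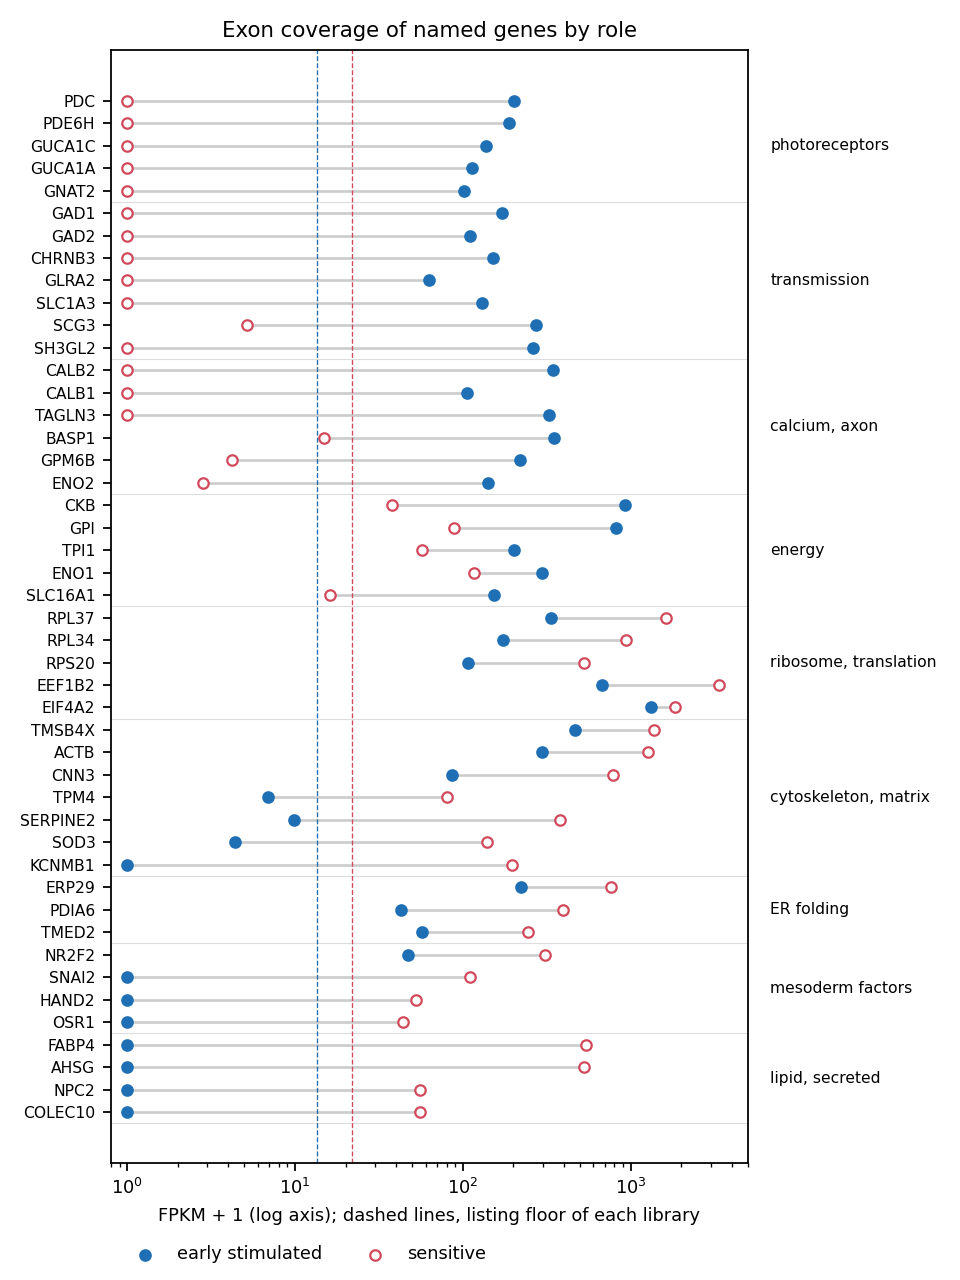
Level of named genes as FPKM + 1 on a log axis, grouped by role. Filled points are early stimulated, open points sensitive, and dashed lines the listing floors of 12.5 FPKM in early stimulated and 20.8 FPKM in sensitive. Points at 1 are genes listed at 0. In the upper 4 groups (photoreceptors to energy) the filled point lies to the right, and in the lower groups to the left.

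Ribosomal-protein genes, which encode the parts of the cytosolic ribosome, were lower in early stimulated nearly throughout. Among 27 compared genes 26 were lower and none was higher, and the median was -2.09. The levels in sensitive were from 1.34 to 8.39 times those in early stimulated over the 26 genes covered in both, with a median of 4.36 times. RPL30 stood at one end, with 54.6 FPKM in early stimulated and 459 FPKM in sensitive, and RPL38 at the other, with 30.7 and 41.2 FPKM, and it alone stayed within 1. RPL37 had 337 and 1622 FPKM, and RPL34 had 173 and 935 FPKM. RPS27L, a stress-induced relative of RPS27, was listed at 0 in early stimulated and had 124 FPKM in sensitive. Whether reads of these genes were shared with similar copies was not tested. Their exon lengths ran from 219 to 5153 bases, with a median of 1177. The 782 other genes of at most 5153 bases, which are most of the genes compared, had a median difference of -0.01. Without the ribosomal-protein genes, genes with exon lengths of 51 to 726 bases had a median of -0.23. Genes of 729 to 1479 bases had -0.14, genes of 1481 to 2482 bases 0.16 and genes of 2487 to 3751 bases -0.07. Genes of 3760 to 7306 bases had 0.20. With the ribosomal-protein genes included, lower genes numbered 60, 48, 38, 32 and 32 from the shortest to the longest group. Higher genes numbered 48, 53, 46, 48 and 48. The part of exon length in the differences was not tested.

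Translation factors did not move as one. Among 9 compared genes 4 were lower and none was higher, and the median was -0.50, or -1.14 under the genes' own names. EEF1B2, part of the elongation factor that reloads GTP (scaffold JH603193.1, plus strand, 5210407 to 5213935, 6 exons), had 672 FPKM in early stimulated and 3378 FPKM in sensitive, where it was the highest gene with a symbol. EIF3E and EIF3M, subunits of the scaffold of initiation, had 53.0 and 10.4 FPKM in early stimulated and 231 and 55.5 FPKM in sensitive. The helicase EIF4A2, the highest gene with a symbol in early stimulated, had 1324 and 1836 FPKM, and EIF4G2 had 552 and 508 FPKM, both within 1. TPT1, the translationally controlled tumour protein, whose mRNA is regulated like those of ribosomal proteins in mammals, had 605 and 1889 FPKM.

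Genes of protein folding and entry into the endoplasmic reticulum were lower as well, in a list written after values had been seen. Among 20 compared genes 15 were lower and none was higher, and the median was -1.60, or -1.40 with levels at the floors. PDIA6, a disulfide isomerase, had 42.0 FPKM in early stimulated and 396 FPKM in sensitive, and ERP29, a folding chaperone, had 220 and 761 FPKM. TMED2, a cargo receptor of vesicles leaving that compartment, had 56.2 and 242 FPKM, and SSR3, part of the translocon complex, had 47.0 and 111 FPKM. SDF2L1 and FKBP7, further luminal chaperone partners, were listed at 0 in early stimulated and had 36.3 and 30.0 FPKM in sensitive. SEC61A2, EMC2, EMC3, TMED10 and STT3B stayed within 1. Peroxiredoxin PRDX4, which works in the same compartment, had 84.2 and 372 FPKM, while the mainly cytosolic PRDX1 had 305 and 547 FPKM, within 1. The cytosolic chaperone HSP90AA1 and its partner FKBP4 stayed within 1, with 999 and 214 FPKM in early stimulated and 630 and 108 FPKM in sensitive. FKBP4 passed 1 with median-of-ratios scaling, at 1.17.

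Mitochondrial genes gave no single direction. Of 6 compared protein genes of mitochondrial DNA, 5 were lower and 1 higher. COX1, a catalytic subunit of cytochrome oxidase, had 1.22 FPKM in early stimulated and 146 FPKM in sensitive, and COX3, a further subunit from the same circular genome, had 126 and 1.59 FPKM. ATP8, of the ATP synthase, had 67.6 and 226 FPKM, and its exon overlaps that of the neighbouring gene. Among nuclear genes of the respiratory chain, mitochondrial import and mitochondrial ribosome, 5 of 8 stayed within 1, MRPL13 and MRPL33 of that ribosome were lower, and the import receptor TOMM70 was higher, with 76.3 and 37.0 FPKM. MRPL13 had 4.12 FPKM in early stimulated and 69.5 FPKM in sensitive.

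Some groups of general cell function had most members within 1. Of 25 compared genes of the proteasome and of ubiquitin transfer, 24 stayed within 1, and the 1 that was higher was the neuronal hydrolase UCHL1, with 206 FPKM in early stimulated and 14.4 FPKM in sensitive. The 14-3-3 proteins, adaptors that bind phosphorylated partners, were listed after values had been seen. All 4 stayed within 1, which is therefore no test of their stability. YWHAB had 799 and 993 FPKM, YWHAZ 447 and 527 FPKM, YWHAE 349 and 342 FPKM, and YWHAQ 261 and 270 FPKM in early stimulated and sensitive. Splicing factors and RNA helicases stayed within 1 for 20 of 26 genes, with DDX5 at 645 and 666 FPKM. HNRNPDL was the 1 higher, at 608 and 292 FPKM, and turned to -8.18 under its name. Of 33 vesicle trafficking genes, 21 stayed within 1, 8 were lower, a share near the 24% over all genes, and 4 were higher. ARF1, which starts the coating of Golgi vesicles, had 307 FPKM in each library, while LAPTM4B, a lysosomal membrane protein, had 134 FPKM against 0 and SNAP23, a relative of SNAP25 found outside neurons, had 5.26 FPKM in early stimulated and 46.7 FPKM in sensitive.

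The shape of coverage along the genes differed a little between the libraries. Over 594 genes with 3 exons or more and coverage in both, each gene's exon bases were cut into 3 equal parts. The 3′ part held a median of 54.1% of the coverage of the 5′ and 3′ parts in early stimulated and 61.5% in sensitive. The 3′ part was above the 5′ part in 56.4% of genes in early stimulated and 63.1% in sensitive. Among the 94 higher genes the median shares were 62.1% in early stimulated and 65.1% in sensitive, and among the 128 lower genes 53.4% and 59.2%. These medians include genes with a whole part uncovered. The 5′ part was uncovered in 28 genes in early stimulated and 51 in sensitive, and the 3′ part in 36 and 50. Among the 94 higher genes the 5′ part was uncovered in 1 and 19, and the 3′ part in 2 and 12. By these medians coverage leaned more to the 3′ end in sensitive, for genes of either direction. The part of uncovered stretches in this lean, and of the lean in the differences, was not tested.

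**Figure D4:**
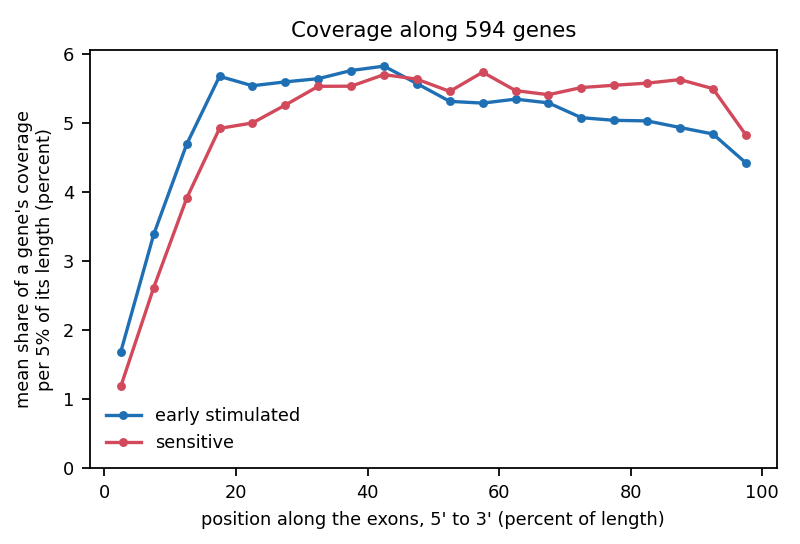
Mean share of a gene's coverage (vertical axis, percent) in each 5% of its exon length from the 5′ to the 3′ end (horizontal axis), over 594 genes. The blue line is early stimulated and the red line sensitive. Early stimulated lies above sensitive over the first part of the genes and below it over the last part.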

How the data were processed

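RNA of 4 libraries labelled as testis was sequenced, and 2 of them are compared here. The submitters' processing notes name Trimmomatic, a read trimmer. No source used here gives the aligner. Per the file headers the authors assembled each library separately with StringTie 1.3.3b. The guide was the collared flycatcher (FicAlb_1.4, Ensembl 89), another songbird. The deposited values are FPKM, TPM and per-base coverage, with no read counts and no scaling between libraries recorded. The authors' command line for the library labelled sensitive uses another abbreviation than its title.

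From these, each gene's level was computed as the mean coverage over its exons, summing listed transcripts of the same or no strand, times the library's ratio of FPKM to coverage, and 0 where none was listed. A gene's exons were taken from its named transcripts, over all 4 files together. A level can therefore rest on transcripts without the gene's name. For GNAT2, GNB1, FABP5, ATP6V1C1 and AQP4, among others, no transcript in either compared library carried the name. Genes reaching 25 FPKM in either library were compared on log2(FPKM + 1), so the pseudocount is 1, and those differing by 1 or more were called higher or lower. Scripts ran in Python 3.11.15 with numpy 2.4.6 and pandas 2.3.3 and were checked on simulated data. Exons of 11 compared genes overlap those of another named gene on the same strand.

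The members and 30 gene lists were chosen with earlier results of these data known, and 5 further lists were written after values had been seen. Genes were named by rule: by the largest differences, by the highest levels, and up to 5 per list by level. Others, mostly family members given for contrast, were chosen after their values were seen. Levels of a few members of the lists are left out here. Alternatives covered the pseudocount, the minimum level, uncovered genes, scaling, names and strand. No reference sequence was used.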

Additional observations from a re-analysis of the deposited data

How the results depend on the processing

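The counts of 243 higher and 210 lower genes moved by more than 1.5 times with a minimum of 50 FPKM (149 higher), with a minimum of 1 FPKM (614 higher and 444 lower), with genes covered in both libraries only (138 higher) and with a difference of at least 2 (103 lower). The median difference of -0.03 became 0.11 with a minimum of 1 FPKM, -0.19 with genes covered in both and 0.16 with median-of-ratios scaling, a shift of all genes that brings the counts to 273 higher and 184 lower. With values under a library's floor set to that floor, 166 genes were higher and 205 lower, so which direction holds more genes depends on this choice. Values under the genes' own names reversed ACTB to 8.22, ATP1B3 to -6.84, CALM3 to -1.84, CPE to -6.27, GAPDH to -6.79, HNRNPDL to -8.18 and PCP4 to -0.21, and gave 242 higher and 216 lower of 660 genes. Requiring 50% of exon bases covered in the higher library, chosen after seeing the data, gave 236 higher and 199 lower. Of 26 list medians, that of the 14-3-3 proteins changed sign, at -0.14 and, with median-of-ratios scaling, 0.05, both within 1. Under the genes' own names 3 medians crossed the limit of 1. Translation factors went from -0.50 to -1.14, cell cycle and chromatin from -0.43 to -3.33, and smooth muscle and actin from -0.996 to -2.34. With levels at the floors 2 did, lipid genes at -0.91 and cell adhesion and synapse organisation at 0.74. With median-of-ratios scaling 1 did, small noncoding RNAs, from -1.04 to -0.86. No paired analysis was possible because each state has 1 library. Depth is limited by the floors, above all in sensitive.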

Other observations

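Genes of cell adhesion and synapse organisation, listed after values had been seen, were higher in early stimulated in 18 of 22 compared genes and lower in 2, with a median difference of 3.92. With levels under the floors set to the floors the median was 0.74 and 8 genes were higher. PLPPR4, a membrane protein of glutamate synapses, had 62.4 FPKM in early stimulated and 0 in sensitive, DPP10, a potassium channel partner, had 60.0 FPKM against 0, and LGI1, a secreted synaptic protein, had 45.4 FPKM against 0. TMEFF2, a transmembrane protein of the nervous system, was covered in both libraries, with 179 and 34.2 FPKM. The adhesion protein CADM2 went the other way, with 31.6 FPKM in early stimulated and 105 FPKM in sensitive, and LRRTM3, a postsynaptic adhesion protein, was listed at 0 against 39.6 FPKM. These are the 2 lower genes of that list.

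Signalling genes outside the lists, chosen after their values were seen, also parted. The sphingosine phosphate receptors S1PR1 and S1PR3 had 39.1 and 14.7 FPKM in early stimulated and 19.0 and 65.6 FPKM in sensitive. SGK1, a kinase induced by steroid hormones, had 148 and 24.6 FPKM, and TOB1, an antiproliferative regulator, had 320 and 81.6 FPKM. JUN and KLF6, immediate early transcription factors, had 14.9 and 17.1 FPKM in early stimulated and 55.7 and 58.4 FPKM in sensitive. GUCY1A3, the receptor subunit for nitric oxide in smooth muscle, had 35.3 and 113 FPKM, and LGMN, a lysosomal protease, had 42.9 and 167 FPKM.

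The remaining libraries were not part of the comparison, but their levels can stand beside it. Of the 105 genes listed at 0 in sensitive, 102 had coverage in late stimulated and 101 in refractory. Of the 38 listed at 0 in early stimulated, 16 had coverage in late stimulated and 18 in refractory. Late stimulated and refractory were deeper, with 428.4 and 318.1 Mb of aligned bases and floors of 5.84 and 7.86 FPKM. The floors were 12.5 FPKM in early stimulated and 20.8 FPKM in sensitive. A gene could therefore be listed in the deeper libraries at a level under those floors. The share of all compared genes covered in late stimulated and refractory is not given here. The part of depth in these counts was not tested. DIRAS2, a small GTPase of neurons, had 5.82 FPKM in sensitive and 426, 421 and 405 FPKM in the early stimulated, late stimulated and refractory libraries. FABP4, at 538 FPKM in sensitive, had no coverage in early stimulated, late stimulated or refractory. COX3 had 1.59 FPKM in sensitive, then 126, 0.11 and 0.15 FPKM in the same order. Its high level was thus seen in early stimulated alone of the 4 libraries. Other genes of mitochondrial DNA also varied widely. CYTB had 55.6 FPKM in sensitive, then 26.4, 0.30 and 0.40 FPKM, and ND4 had 43.0 FPKM, then 16.4, 25.5 and 81.9 FPKM. The cause of such swings was not tested.

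Of the 162 genes with an identifier and no symbol, 53 were higher and 47 lower in early stimulated. These shares are not far from the 27.7% and 24% over all genes. The highest levels were in very short exons. ENSFALG00000015546, with 1 exon of 51 bases, had 0.60 FPKM in early stimulated and 10346 FPKM in sensitive, and ENSFALG00000015904, with 1 exon of 66 bases, had 3987 FPKM in early stimulated and 1.67 FPKM in sensitive. Of 96 small noncoding RNAs named, in a list written after values had been seen, 6 were compared. Among these, SNORD97 had 339 and 41.3 FPKM and the spliceosomal U4 had 14.1 and 138 FPKM.

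The remaining lists held few compared genes. Of the retinal and forebrain transcription factors, THRB, a thyroid hormone receptor, had 25.5 FPKM in early stimulated and 0 in sensitive, and SALL1, a zinc finger factor, had 58.4 and 25.4 FPKM. The glial list added AQP4, a water channel, at 27.1 FPKM against 0, and the blood and immune list held the chemokine CXCL14 alone, at 26.4 FPKM against 0. THRB, AQP4 and CXCL14 lay under 2 times the sensitive floor. The endothelial list held FABP4 alone, and no lens gene was compared. Of 7 genes of the cell cycle and chromatin, 1 was higher and 2 were lower, beside 27.7% and 24% over all genes. Their median was -0.43, or -3.33 under the genes' own names. The lower genes were cyclin CCND2 and the nucleosome-binding HMGN3. CCND2 was listed at 0 in early stimulated and had 47.2 FPKM in sensitive, and HMGN3 had 28.9 and 141 FPKM.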
